A study of Arabidopsis thaliana with 24 samples.

Results

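The genes described here encode proteins of the large subunit of the cytosolic ribosome in Arabidopsis thaliana. They are 60 loci of the 37184 in each count table, listed by locus for 28 proteins named L3 to L36. The loci were listed by name and not by a threshold on these counts, although earlier results of these data were known when the list was drawn up. For 24 of the proteins 2 paralogous genes are listed, and for the other 4 proteins 3 genes. Another 15 genes of 14 of these proteins lie outside the list, so sums and shares by protein cover the listed genes. All 60 loci passed the filter on low counts and were among the 13592 genes tested.

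The large ribosomal subunit is assembled from ribosomal RNA and, for most of its proteins, a single copy of each, starting in the nucleolus. It holds the peptidyl transferase centre, where peptide bonds form, and the tunnel through which the new chain leaves. In plants nearly every ribosomal protein is encoded by a small family of expressed paralogs, and growing tissue makes the most ribosomes.

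Transcript ends were counted by 3' RNA-seq in plants 21 days old of 6 genotypes, with 4 libraries each. Col-0 was the wild type. The mutant dxo1-2 carries an allele of DXO1, a plant relative of enzymes that remove abnormal caps from RNA. The other 4 genotypes were dxo1-2 plants transformed with DXO1 under the 35S promoter, which is active in most plant cells. A full-length active line carried a construct for the unchanged protein. In a full-length substituted line the catalytic site was altered by E394A and D396A. Truncated active and truncated substituted lines carried constructs for versions of these that lack the N-terminal part. By genotype and construct, the groups differ in the presence of DXO1, in its catalytic site and in its N-terminal part. The counts do not measure DXO1 protein. Since 1 line stood for each construct, effects of the line and of the construct cannot be told apart. Nothing in the labels says that the 4 libraries of a genotype came from separate plants, so p-values measure the spread between these libraries.

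Total counts ran from 1270033 to 3490594 per library. Reads of DXO1 (AT4G17620) stood at 11.8 to 19.1 CPM, which are counts scaled to library size by TMM, in Col-0 and 2.67 to 4.23 CPM in dxo1-2. They ranged from 10.9 to 21.6 CPM over both full-length lines and from 1.98 to 7.04 CPM over both truncated lines, so a lower DXO1 read level came with the truncation. The truncated active and substituted lines were at 0.40 and 0.67 on the log2 scale relative to dxo1-2 (edgeR adjusted p 0.547 and 0.695). Lack of the N-terminal part and a low DXO1 read level therefore cannot be told apart. Whether reads at this locus count transgene transcripts in full was not tested. Markers of green leaves were abundant, and those of roots and of flowers each summed to at most 1.48 CPM in any library, with 2 of 3 root markers at 0 throughout. Markers of dividing cells summed to 2.84 to 5.45 CPM in Col-0, 2.00 to 5.52 CPM in dxo1-2 and 2.85 to 7.87 CPM over the lines. Seed markers summed to 19.9 to 29.3 CPM in Col-0, 10.1 to 46.5 CPM in dxo1-2 and 1.02 to 3.25 CPM in the full-length active line. They ran from 0 to 25.4 CPM over the remaining lines. The senescent leaf marker reached at most 1.69 CPM. The summed level of 4 green leaf markers was 65473 to 81978 CPM in Col-0 and 47008 to 53383 CPM in dxo1-2. It was 57124 to 81070 CPM over the full-length lines and 36753 to 53643 CPM over the truncated lines. All 4 were called lower in dxo1-2 than in Col-0, and their part in the results was not tested. In bulk libraries fewer cells of a type and less RNA per cell cannot be told apart.

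Sequences upstream of the annotated transcript start are shown for 5 members. They are the L27a and L3 paralogs, whose changes in dxo1-2 differed most within a protein, and an L12 gene that holds both motifs known from plant ribosomal protein genes. Coordinates and sequence are those of RefSeq's TAIR10.1 assembly, and each run holds 200 bases ending at the base before the start. Capitals mark the telo box (AAACCCTA) and site II (TGGGCC or TGGGCT), on either strand.
AT1G70600 (L27a, chr1:26621780-26621979, minus strand): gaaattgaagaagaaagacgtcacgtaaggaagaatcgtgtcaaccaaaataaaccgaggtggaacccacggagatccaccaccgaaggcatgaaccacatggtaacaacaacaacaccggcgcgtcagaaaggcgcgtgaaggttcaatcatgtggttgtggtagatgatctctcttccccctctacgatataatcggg
AT1G23290 (L27a, chr1:8262725-8262924, plus strand): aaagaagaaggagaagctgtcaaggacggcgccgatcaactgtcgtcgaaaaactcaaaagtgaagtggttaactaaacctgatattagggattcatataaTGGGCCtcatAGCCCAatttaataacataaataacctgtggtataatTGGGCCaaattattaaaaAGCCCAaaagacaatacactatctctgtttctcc
AT1G43170 (L3, chr1:16266353-16266552, plus strand): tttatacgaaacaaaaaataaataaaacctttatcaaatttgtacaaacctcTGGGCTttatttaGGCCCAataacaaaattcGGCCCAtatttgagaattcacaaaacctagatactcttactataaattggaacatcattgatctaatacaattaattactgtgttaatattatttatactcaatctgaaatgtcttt
AT1G61580 (L3, chr1:22723153-22723352, minus strand): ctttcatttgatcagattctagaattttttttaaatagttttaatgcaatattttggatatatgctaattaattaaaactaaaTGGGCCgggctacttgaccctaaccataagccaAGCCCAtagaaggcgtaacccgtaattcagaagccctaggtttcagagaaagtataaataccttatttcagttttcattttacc
AT2G37190 (L12, chr2:15620157-15620356, minus strand): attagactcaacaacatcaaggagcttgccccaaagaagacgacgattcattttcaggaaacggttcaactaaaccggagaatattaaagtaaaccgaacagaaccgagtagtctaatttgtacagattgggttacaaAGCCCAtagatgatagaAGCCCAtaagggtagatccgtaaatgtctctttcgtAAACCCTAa

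The L27a gene AT1G23290 held 4 site II matches in these bases, whereas its paralog AT1G70600 held none there. In a wider window, from 250 bases before to 50 bases after the start, 29 of 60 members held a telo box (48.3%), against 6.25% of 31345 gene starts. Site II was present in 50 members (83.3%), against 20.1% of all starts, and AT1G70600 held 2 matches in this window. Both motifs were found in 41.7% of members and 2.04% of all starts. Neither motif contains the other, and a match describes letters and not a bound site. Members with and without a telo box had median log2 fold changes in dxo1-2 minus Col-0 of 1.32 and 1.41, and those with and without site II 1.37 and 1.29.

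Large-subunit genes rose together in dxo1-2. Their summed share of all counts was 0.511% to 0.640% in the Col-0 libraries and 1.46% to 1.72% in those of dxo1-2, with no overlap. The mean summed level rose from 6247 ± 923 CPM in Col-0 to 16213 ± 946 CPM in the mutant (SD, n = 4), a ratio of 2.60. A gene was called where edgeR's quasi-likelihood test gave a Benjamini-Hochberg adjusted p under 0.05 over all 13592 tested genes. By that rule 54 of 60 members were higher in dxo1-2 and 0 lower. Of all tested genes 22.6% were called, 14.7% higher and 7.93% lower. An unadjusted p under 0.05 held for 58 members. Here and below, such counts by unadjusted p are given without the share over all tested genes, so they have no background. The median log2 fold change was 1.37 over the members and 0.019 over all tested genes. For 53 members every dxo1-2 library lay above every Col-0 library, and 26.1% of tested genes had no overlap in either direction.

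**Figure D1:**
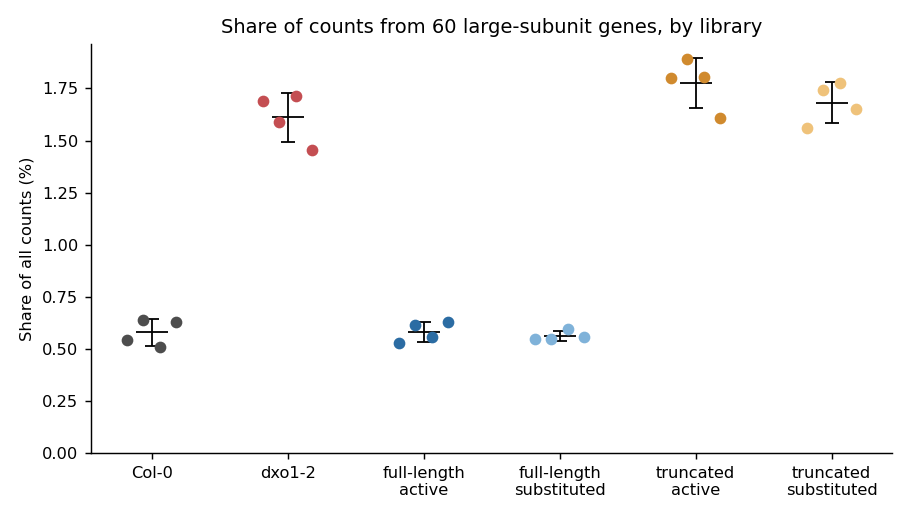
Share of all counts (percent, vertical axis) taken by the 60 large-subunit genes in each library, with 1 point per library and the mean ± SD (n = 4) for each of 6 genotypes. Col-0 and both full-length lines lie between 0.511% and 0.640%, and dxo1-2 and both truncated lines lie between 1.46% and 1.89%.

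**Figure D2:**
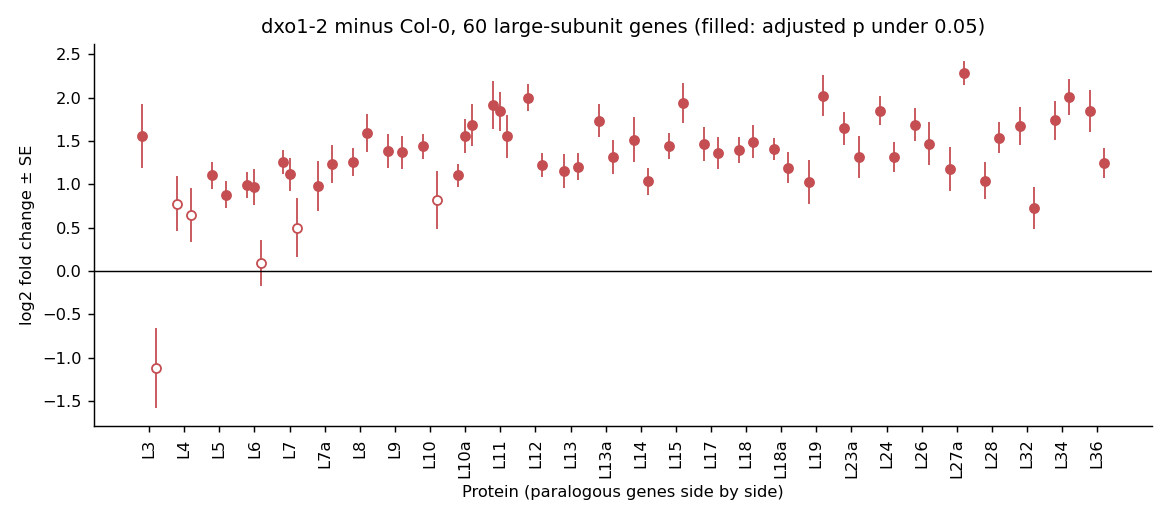
Log2 fold change ± SE of dxo1-2 minus Col-0 for the 60 genes, with the paralogs of a protein side by side and filled points for genes with an edgeR adjusted p under 0.05. The values run from -1.12 for the L3 gene AT1G61580 to 2.28 for the L27a gene AT1G70600.

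L5 and L11 form a particle with 5S ribosomal RNA and enter the subunit with it. All 5 of their genes were called higher in dxo1-2, with a median log2 fold change of 1.55. The L11 gene AT2G42740 had 6.62, 10.6, 10.9 and 7.17 CPM in Col-0 and 26.4, 44.6, 26.7 and 35.5 CPM in dxo1-2. Every mutant library exceeded every wild-type library (log2 fold change 1.92, SE 0.28, edgeR adjusted p 9.5e-06). Its paralog AT3G58700 had 19.9, 20.4, 20.4 and 28.7 CPM in Col-0 and 66.1, 87.9, 79.6 and 89.6 CPM in dxo1-2. Here too the genotypes did not overlap (log2 fold change 1.84, SE 0.22, edgeR adjusted p 6.6e-07).

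L3, L8 and L10 reach towards the peptidyl transferase centre. Of their 6 genes 4 were called higher, and the median log2 fold change was 1.35. The L8 gene AT2G18020, the most abundant member in Col-0, had 355, 457, 338 and 477 CPM in Col-0 and 953, 1032, 1073 and 829 CPM in dxo1-2. Its genotypes were well separated (log2 fold change 1.26, SE 0.16, edgeR adjusted p 1.5e-06). Of the L10 genes, AT1G14320 rose (log2 fold change 1.44, SE 0.15, edgeR adjusted p 4.6e-08). The scarce paralog RPL10B (AT1G26910) had 6.15, 7.56, 11.6 and 10.2 CPM in Col-0 and 9.68, 21.3, 14.3 and 18.6 CPM in dxo1-2. These values overlapped, and the gene was not called (log2 fold change 0.82, SE 0.33, edgeR adjusted p 0.0796). The other uncalled gene, RPL3B (AT1G61580), is described with its L3 paralog.

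L10a forms the mobile L1 stalk, and L12 lies at the base of the stalk that recruits translation factors. All 5 of their genes were called higher, with a median log2 fold change of 1.56. AT2G37190 (L12) had 31.7, 45.4, 39.5 and 44.2 CPM in Col-0 and 133, 162, 188 and 159.8 CPM in dxo1-2. Its lowest mutant library was well above its highest wild-type library (log2 fold change 2.00, SE 0.16, edgeR adjusted p 6.7e-10).

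L4, L17, L23a and L26 line the exit tunnel or surround its opening. Of their 8 genes 6 were called higher, and the median log2 fold change was 1.41. The L23a gene AT2G39460 rose from 262 ± 48.01 to 822 ± 128 CPM (log2 fold change 1.65, SE 0.19, edgeR adjusted p 2.8e-07). Both L4 genes were uncalled. AT3G09630 had 53.4, 90.7, 59.96 and 78.8 CPM in Col-0 and 177, 128, 123 and 50.7 CPM in dxo1-2. Replicate 4 of the mutant lay below all of Col-0 and the other mutant libraries above it (log2 fold change 0.78, SE 0.32, edgeR adjusted p 0.0772). AT5G02870 had 79.5, 94.5, 57.2 and 90.2 CPM in Col-0 and 192, 124, 113 and 70.2 CPM in dxo1-2. Again replicate 4 alone fell within the wild-type range (log2 fold change 0.65, SE 0.31, edgeR adjusted p 0.142).

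L19 and L24 contribute to bridges between the subunits, and all 4 of their genes were called higher, with a median log2 fold change of 1.58. AT2G36620 (L24) had 73.3, 84.7, 59.3 and 115 CPM in Col-0 and 258, 310.4, 313 and 317 CPM in dxo1-2. The genotypes were far apart (log2 fold change 1.85, SE 0.17, edgeR adjusted p 8.4e-09). The remaining 15 proteins sit elsewhere on the subunit, and 30 of their 32 genes were called higher, with a median of 1.29.

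Among these, L15 reaches deep into the ribosomal RNA, and its gene AT4G17390 had 94.6, 96.8, 72.2 and 90.2 CPM in Col-0 and 456, 331, 361 and 208 CPM in dxo1-2. All mutant libraries were higher, although they ranged widely among themselves (log2 fold change 1.94, SE 0.23, edgeR adjusted p 5.5e-07). L34 and L36 have no bacterial counterpart. AT3G28900 (L34) had 25.1, 27.98, 29.3 and 40.02 CPM in Col-0 and 99.5, 142, 122 and 130.2 CPM in dxo1-2. No library of one genotype reached the range of the other (log2 fold change 2.01, SE 0.20, edgeR adjusted p 4.6e-08). AT1G26880, the second L34 gene, had 83.2, 126, 68.8 and 132 CPM in Col-0 and 260.2, 392, 346 and 369 CPM in dxo1-2. It too was separated (log2 fold change 1.74, SE 0.22, edgeR adjusted p 1.5e-06). The L36 gene AT2G37600 had 34.5, 44.6, 30.7 and 65.1 CPM in Col-0 and 119.9, 171, 155 and 185 CPM in dxo1-2. Its mutant values were all higher (log2 fold change 1.84, SE 0.24, edgeR adjusted p 2.2e-06).

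The lowest changes outside L3 and L4 were in single paralogs of L6, L7 and L32. AT1G74060 (L6) had 50.1, 71.8, 65.4 and 64.5 CPM in Col-0 and 88.8, 67.9, 69.9 and 38.05 CPM in dxo1-2. The ranges overlapped, with the mutant's replicate 4 below all of Col-0 (log2 fold change 0.096, SE 0.27, edgeR adjusted p 0.852). AT3G13580 (L7) had 8.99, 11.3, 11.6 and 24.5 CPM in Col-0 and 25.7, 16.7, 21.2 and 14.4 CPM in dxo1-2. Col-0 replicate 4 was among the mutant values (log2 fold change 0.50, SE 0.34, edgeR adjusted p 0.326). AT5G46430 (L32) had 60.1, 89.2, 70.9 and 111 CPM in Col-0 and 97.8, 143, 139 and 171 CPM in dxo1-2. It was called although its libraries overlapped (log2 fold change 0.73, SE 0.25, edgeR adjusted p 0.0320). Of 8 fits that each omitted 1 library, 6 did not call it, with log2 fold changes of 0.60 to 0.91 over these fits, and with the trend of counts on exon length removed it was 0.19 (edgeR adjusted p 0.354).

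Paralogs of one protein did not always move alike. Over 36 pairs, the difference between the log2 fold changes of paralogs in dxo1-2 minus Col-0 had a median of 0.39 and a range of 0.014 to 2.68, and 13 pairs differed by more than 0.5. In 29 pairs both genes were called higher. Of single tested genes 14.7% were called higher, and pairs of other genes were not counted. How the authors counted reads that match several paralogs is not given in the sources used here. Coding sequences of the pairs were 68.7% to 99.1% identical, with a median of 84.9%. Over the last 300 bases of the annotated transcripts, near which 3' reads fall, aligned identity was 44.1% to 58.01% and the longest shared run was 7 to 25 bases.

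L3 had the pair with the largest difference. AT1G43170 had 72.8, 71.1, 70.9 and 45.99 CPM in Col-0 and 292, 137, 221 and 111 CPM in dxo1-2. Its mutant libraries were all higher (log2 fold change 1.56, SE 0.37, edgeR adjusted p 0.00259). RPL3B (AT1G61580) had 6.15, 11.3, 4.09 and 4.18 CPM in Col-0 and 2.67, 1.998, 4.60 and 1.69 CPM in dxo1-2. The mutant libraries were below the wild type except for replicate 3, which overlapped (log2 fold change -1.12, SE 0.46, edgeR adjusted p 0.0829). Behind them were 6 to 15 counts per library in Col-0 and 2 to 10 in dxo1-2, and it was the only member with a negative value. Without Col-0 replicate 2 its log2 fold change was -0.75 (edgeR adjusted p 0.311). Without dxo1-2 replicate 3 it was -1.49 (edgeR adjusted p 0.0489), and with the length trend removed -1.21 (edgeR adjusted p 0.0479), both past the threshold.

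L27a reaches into the core of the subunit with a long extension, and both of its genes were called. AT1G70600 had 107, 119, 87.9 and 118 CPM in Col-0 and 463, 552, 555 and 534 CPM in dxo1-2. It had the largest rise of the 60 genes, far outside the spread of either genotype (log2 fold change 2.28, SE 0.14, edgeR adjusted p 4.5e-12). AT1G23290 had 120.1, 142, 91.98 and 174 CPM in Col-0 and 216, 316, 325 and 339 CPM in dxo1-2. The genotypes were apart but closer (log2 fold change 1.18, SE 0.25, edgeR adjusted p 0.00104). In L19, the minor gene AT3G16780 had 6.15, 12.1, 12.9 and 11.9 CPM in Col-0 and 53.4, 38.6, 38.6 and 40.6 CPM in dxo1-2. Every mutant library exceeded the wild type (log2 fold change 2.02, SE 0.24, edgeR adjusted p 4.5e-07). Its major paralog AT1G02780 rose from 131 ± 14.1 to 266 ± 73.8 CPM (log2 fold change 1.03, SE 0.25, edgeR adjusted p 0.00381), and had a log2 fold change of 0.77 with the length trend removed (edgeR adjusted p 0.101).

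The other proteins whose paralogs differed most were L32, L6 and L12. AT4G18100 (L32) rose from 180.2 ± 51.3 to 575 ± 106 CPM (log2 fold change 1.68, SE 0.22, edgeR adjusted p 2.3e-06), beside 0.73 on the log2 scale for AT5G46430. AT1G18540 and AT1G74050 (L6) were at 0.99 and 0.97 on that scale (edgeR adjusted p 1.8e-05 and 8.0e-04), beside 0.096 for AT1G74060. AT3G53430 (L12) was called higher (log2 fold change 1.22, SE 0.14, edgeR adjusted p 3.1e-07) and AT2G37190 stood at 2.00.

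Each gene's share of its protein's summed CPM was then compared between Col-0 and dxo1-2. Of 36 such shares 10 did not overlap, which is 27.8%. The same held for 43.8% of 80 shares in small-subunit proteins and 50.0% of 44 shares in other large-subunit proteins. The next shares are of proteins picked because their paralogs changed most unequally in this same comparison. Their p-values are therefore no separate support. AT1G23290 made up 54.5% ± 3.70 of L27a in Col-0 and 35.997% ± 2.97 in the mutant (SD, n = 4), a difference of -18.5 points (two-sided exact permutation p 0.0286). AT4G18100 made up 68.4% ± 2.75 of L32 in Col-0 and 80.7% ± 2.09 in dxo1-2, which differed by 12.4 points (exact permutation p 0.0286). For AT2G37190 in L12 the shares were 31.1% ± 5.27 and 43.2% ± 1.88, 12.2 points apart (exact permutation p 0.0286). For AT1G74060 in L6 they were 23.1% ± 3.23 and 13.6% ± 3.24, a difference of -9.57 points (exact permutation p 0.0286). That p is the smallest that 4 against 4 libraries allow, and all 10 shares without overlap had it. Among them were also AT1G43170 in L3, AT2G36620 in L24 and AT2G37600 in L36, at 7.36, 8.87 and 8.31 points. Adjusted over all 160 shares of cytosolic ribosomal proteins this smallest p was 0.0682, so 0 shares passed. No share could pass unless many lay at this smallest p together, so the adjusted values cannot decide on any single shift. In 27 of 28 proteins the paralog with the highest mean CPM was the same in Col-0 and dxo1-2, and L27a was the exception. The same held by CPM per kilobase of exon, although reads of this assay do not scale with length. In Col-0 AT1G23290 had 162 ± 42.8 and AT1G70600 113 ± 15.1 CPM per kb, with overlapping libraries. In dxo1-2 they had 367 ± 68.9 and 549 ± 44.7 CPM per kb (SD, n = 4), without overlap.

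**Figure D3:**
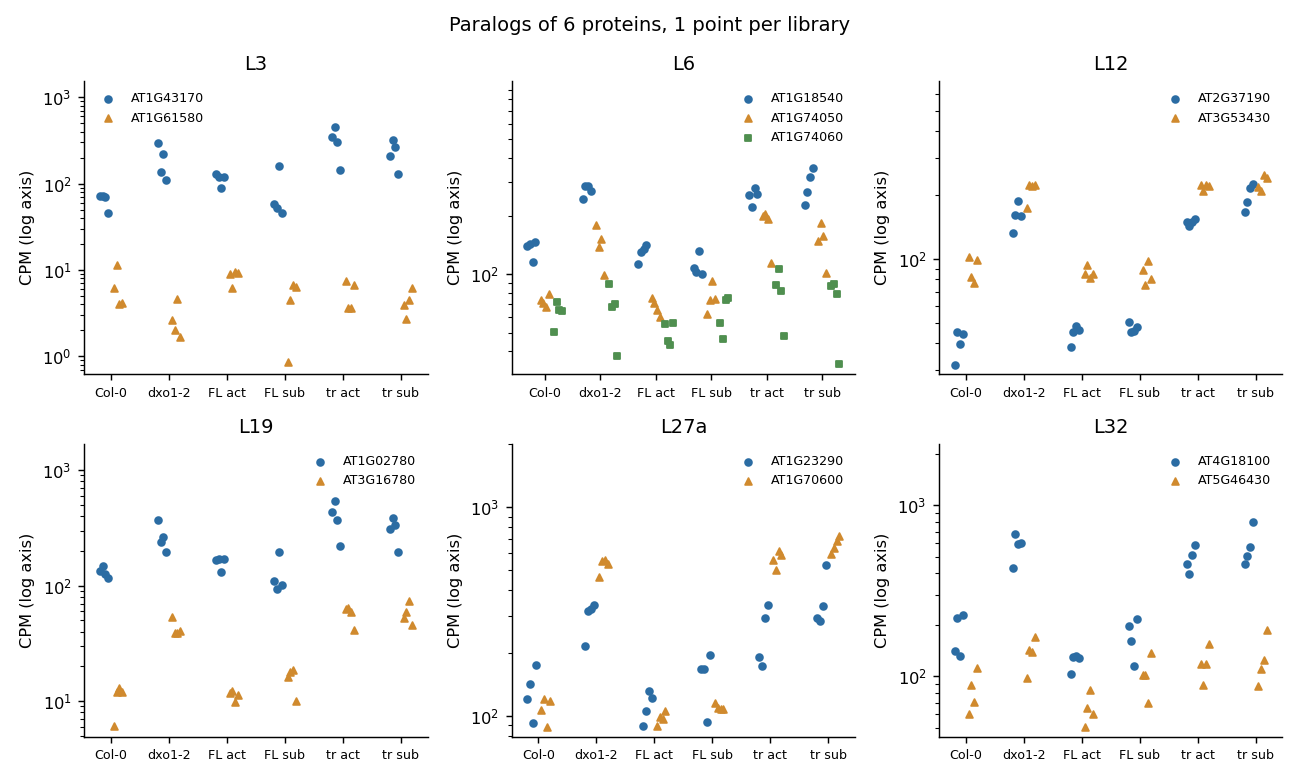
CPM (log axis) of each paralog of L3, L6, L12, L19, L27a and L32 in 24 libraries, with 1 point per library and FL, tr, act and sub for the full-length, truncated, active and substituted lines. AT1G70600 and AT1G23290 of L27a lie near each other in Col-0, and AT1G70600 is the higher in dxo1-2, at 526 against 299 CPM on average.

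Members spanned a wide range of levels within the wild type. Per kilobase of exon in Col-0, the L8 gene AT2G18020 led with 346 ± 59.8 CPM per kb (SD, n = 4), followed by AT4G27090 (L14) with 313 ± 46.1 and AT1G14320 (L10) with 243 ± 46.05 CPM per kb. The first and second differ by less than their spread. RPL10B, AT3G13580 (L7) and RPL3B were lowest, with 8.46 ± 2.35, 8.33 ± 4.15 and 4.33 ± 2.29 CPM per kb, and their ranges run into each other. Reads of this assay do not scale with length. Without division by length AT2G18020 led with 407 ± 70.4 CPM, then AT1G14320 with 307 ± 58.3 and AT2G39460 (L23a) with 262 ± 48.01 CPM. AT4G27090 came after these with 228 ± 33.7 CPM. RPL3B was lowest at 6.44 ± 3.40 CPM, with AT2G42740 (L11) and RPL10B next above it at 8.82 ± 2.24 and 8.86 ± 2.46 CPM. Summed over paralogs, 27 of 28 proteins had no overlap between Col-0 and dxo1-2. Sums of other genes were not made, so this count has no background. The ratio of mean sums ran from 1.62 for L4, whose libraries overlapped, to 3.50 for L34, with a median of 2.65.

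Other ribosomal genes were read from further lists in the same comparison of dxo1-2 with Col-0. Of the other large-subunit genes 52 of 55 tested were called higher and 0 lower, with a median log2 fold change of 1.47. Among small-subunit genes 73 of 82 were called higher and 0 lower, with a median of 1.17. Factors that assemble the large subunit had a median of 0.85, with 4 of 17 called higher and 0 lower. Their largest values were 2.01 for BRX1-1 (AT3G15460), 1.65 for BRX1-2 (AT1G52930) and 1.60 for RLP24 (AT2G44860), with edgeR adjusted p of 4.9e-04, 3.8e-04 and 4.1e-06. Nuclear genes for the large subunit of the plastid ribosome had a median of -0.099, with 2 of 24 called higher and 3 lower. The members are short, with a median exon length of 1093 bases against 1734 over tested genes. With the trend of counts on exon length removed, 51 members were called higher and 1 lower in dxo1-2. The median log2 fold change was then 1.02 over the members and -0.024 over all tested genes. The main fit called 14.7% of tested genes higher and 7.93% lower. The shares called with the length trend removed are not given, so the counts from that fit have no background of their own.

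**Figure D4:**
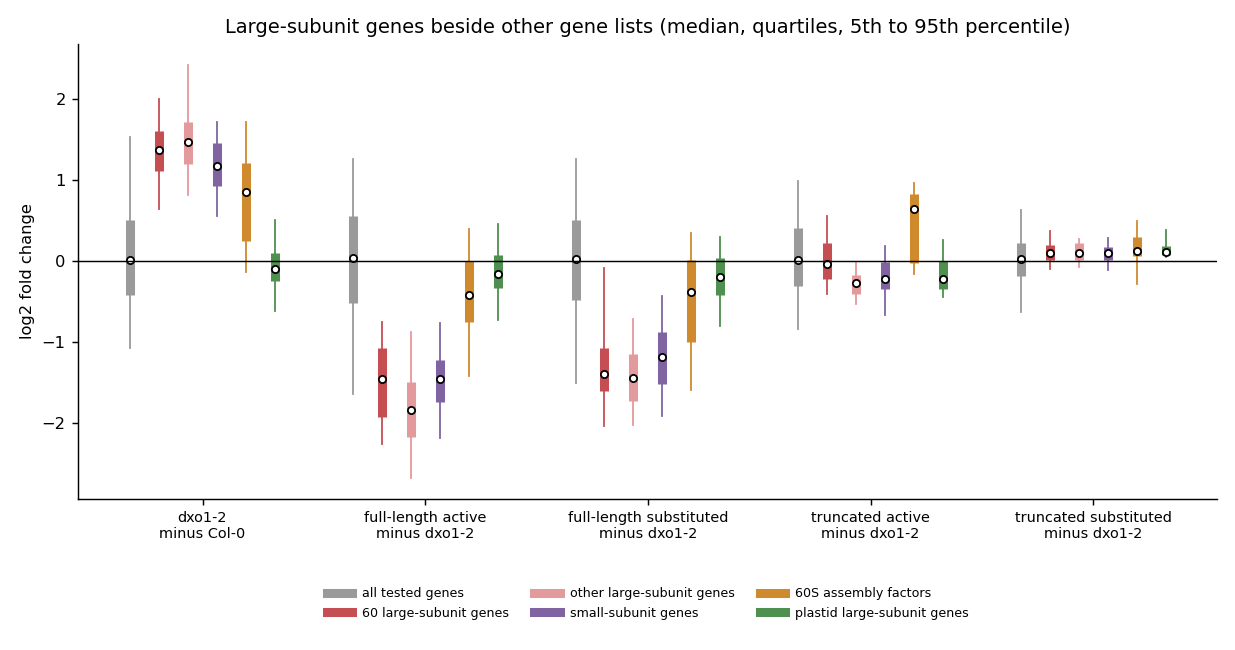
Log2 fold change of all tested genes and of 5 gene lists in dxo1-2 minus Col-0 and in each transgene line minus dxo1-2, with the median as a point and bars for the quartiles and the outer percentiles. In the order plotted, the 60 members have medians of 1.37, -1.45, -1.39, -0.032 and 0.10.

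In the full-length lines the members stood near their wild-type level. They summed to 5631 ± 377 CPM in the full-length active line and 6082 ± 344 CPM in the full-length substituted line (SD, n = 4), ratios to Col-0 of 0.901 and 0.974. Without TMM scaling, their mean shares of all counts were 0.583% and 0.562%, against 0.580% in Col-0. Relative to dxo1-2, 57 of 60 members were called lower in the active line and 1 higher. Among all tested genes 30.6% were called, 18.5% lower and 12.1% higher. The members' median log2 fold change was -1.45, and 57 had no overlap, as had 34.0% of tested genes. In the substituted line 55 members were called lower and 0 higher, with a median of -1.39. There 25.5% of tested genes were called, 15.1% lower and 10.4% higher. No overlap was found for 49 members and 21.3% of tested genes. All these comparisons use the dxo1-2 libraries that also entered the comparison with Col-0, so opposite signs are in part built in.

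The L27a gene AT1G70600 had 89.01, 97.996, 96.2 and 105 CPM in the full-length active line and 114, 109, 108 and 107 CPM in the full-length substituted line. All were below every dxo1-2 library, with log2 fold changes of -2.44 and -2.26 (SE 0.14 and 0.14, edgeR adjusted p 1.0e-12 and 4.7e-12). In the active line AT3G28900 (L34) and AT2G37600 (L36) followed at -2.42 and -2.32 (edgeR adjusted p 1.2e-09 and 4.3e-08). In the substituted line AT4G17390 (L15) had 62.3, 61.6, 82.7 and 66.9 CPM, below all of dxo1-2 (log2 fold change -2.31, SE 0.24, edgeR adjusted p 4.5e-08). AT1G26880 (L34) was at -2.10 there (edgeR adjusted p 1.0e-07). RPL3B (AT1G61580) was the 1 member called higher than in dxo1-2, with 8.94, 6.24, 9.56 and 9.24 CPM in the full-length active line. Those values lay above all 4 of dxo1-2 (log2 fold change 1.54, SE 0.43, edgeR adjusted p 0.00813).

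Not called in the full-length active line were AT1G74060 (L6) (log2 fold change -0.43, SE 0.26, edgeR adjusted p 0.224) and AT1G43170 (L3) (log2 fold change -0.74, SE 0.35, edgeR adjusted p 0.114). AT1G43170 had 129.7, 120.3, 89.8 and 120.2 CPM there, above every Col-0 library and reaching into the range of dxo1-2. In the full-length substituted line the 5 uncalled members were RPL3B at 0.72, AT3G13580 (L7) at -0.0011, RPL10B (AT1G26910) at -0.0070, AT1G74060 at -0.091 and AT5G46430 (L32) at -0.43 on the log2 scale, with SE of 0.24 to 0.48.

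Against Col-0, edgeR called 0 of 60 members higher and 0 lower in the full-length active line, with 1.03% of tested genes called, 0.552% higher and 0.478% lower. In the full-length substituted line it called 0 higher and 0 lower, with 5.36% of tested genes called, 3.18% higher and 2.18% lower. DESeq2 called 0 and 0, and an unadjusted edgeR p under 0.05 held for 10 and 4 members. Libraries without overlap were found for 4 members in the active line, where 14.1% of tested genes had none, and for 1 in the substituted line, where 10.1% had none. The median log2 fold changes were -0.16 and -0.036, with 44 and 34 members below 0. Summed over paralogs, 2 of 28 proteins had no overlap with Col-0 in the active line and 0 in the substituted line. Those in the active line were L3 and L9, at 1.72 and 1.38 times Col-0. Such sums have no background.

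The highest members in the active line against Col-0 were AT1G43170 (L3) (log2 fold change 0.82, SE 0.37, edgeR adjusted p 0.309) and the L9 genes AT1G33120 and AT1G33140 at 0.50 and 0.45. L9 lies near the site where elongation factors bind. The lowest were RPL10B (log2 fold change -0.77, SE 0.35, edgeR adjusted p 0.322) and the L4 genes AT3G09630 and AT5G02870 at -0.65 and -0.58. In the substituted line RPL10B, AT3G16780 (L19) and AT5G67510 (L26) were highest at 0.81, 0.60 and 0.51. AT4G29410 (L28), AT3G49010 (L13) and RPL3B were lowest there at -0.49, -0.47 and -0.40. The median SE over members was 0.20 in both comparisons, so small differences from Col-0 could be missed. When the compared groups were fitted alone, 7 members were called in the active line, where 11.4% of tested genes were. Among them were AT1G43170, AT1G33120 and AT1G33140, higher (edgeR adjusted p 0.00113, 0.0228 and 0.0398), and AT3G09630 and AT5G02870, lower (edgeR adjusted p 0.0179 and 0.0250).

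In the truncated lines the members stood near the level of the mutant. They summed to 15903 ± 684 CPM in the truncated active line and 17403 ± 1469 CPM in the truncated substituted line, ratios to Col-0 of 2.55 and 2.79. Against Col-0, 55 of 60 members were called higher and 0 lower in the active line, where 29.2% of tested genes were called, 16.8% higher and 12.4% lower. The substituted line had 54 members called higher and 0 lower, where 28.3% of tested genes were called, 17.6% higher and 10.7% lower. No overlap was found for 52 and 54 members, against 27.7% and 30.4% of tested genes. Median log2 fold changes were 1.35 and 1.45.

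AT1G70600 (L27a) had 555, 497, 617 and 589 CPM in the truncated active line and 596, 639, 686 and 724 CPM in the truncated substituted line. All were above every Col-0 library, with log2 fold changes of 2.39 and 2.61 (SE 0.14 and 0.14, edgeR adjusted p 1.3e-12 and 2.8e-13). AT3G16780 (L19) was at 2.42 and 2.45 (edgeR adjusted p 1.1e-08 and 1.0e-08). AT1G43170 (L3) was at 2.26 in the active line (edgeR adjusted p 3.7e-05), and AT3G28900 (L34) at 2.41 in the substituted line (edgeR adjusted p 1.2e-09). At the low end, RPL3B (AT1G61580) was at -0.28 and -0.60, and AT1G74060 (L6) at 0.38 and 0.22. RPL10B (AT1G26910) was at 0.31 in the active and AT3G13580 (L7) at 0.52 in the substituted line. These low values were uncalled, with edgeR adjusted p of 0.273 to 0.663.

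Against dxo1-2, edgeR called 0 of 60 members higher and 0 lower in the truncated active line, with 3.03% of tested genes called, 0.706% higher and 2.32% lower. It called 0 higher and 0 lower in the truncated substituted line, with 0.795% of tested genes called, 0.324% higher and 0.471% lower. DESeq2 called 0 and 0, and an unadjusted edgeR p under 0.05 held for 4 and 5 members. In each line 1 member had no overlap with dxo1-2, against 7.61% and 4.92% of tested genes. The medians were -0.032 and 0.10 and the median SE 0.19 in both. With the main axis of spread within groups as a covariate, chosen after seeing the data, 15 and 2 members were called, as were 27.2% and 5.20% of all tested genes.

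In the truncated active line the log2 fold changes from dxo1-2 ranged from -0.56 for AT2G42740 (L11) to 0.84 for RPL3B. AT1G43170 (L3) and AT5G02870 (L4) were at 0.70 and 0.57, and RPL10B and AT3G58700 (L11) at -0.50 and -0.43, with edgeR adjusted p of 0.214 to 0.365 for these 6. In the truncated substituted line the range was -0.13 for AT1G26880 (L34) to 0.53 for RPL3B. AT3G16780 (L19) and AT3G28900 (L34) were at 0.43 and 0.40, and AT5G22440 (L10a) and AT5G46430 (L32) at -0.11 and -0.11. Summed over paralogs, L3 had a ratio to dxo1-2 of 1.64 in the truncated active line, with overlapping libraries. By such sums 0 of 28 proteins had no overlap in that line and 1 in the truncated substituted line. These counts too have no background.

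The other lists were set beside the members in the lines minus dxo1-2, as median log2 fold changes with edgeR calls. Other large-subunit genes had -1.83 (0 higher and 53 lower of 55) in the full-length active and -1.43 (0 higher and 51 lower of 55) in the full-length substituted line. Small-subunit genes had -1.46 (0 higher and 78 lower of 82) and -1.18 (0 higher and 71 lower of 82). In the truncated active line other large-subunit genes had -0.27 (0 higher and 0 lower of 55) and small-subunit genes -0.22 (0 higher and 1 lower of 82). In the truncated substituted line these were 0.098 (0 higher and 0 lower of 55) and 0.098 (0 higher and 0 lower of 82). Assembly factors of the large subunit had -0.42 (0 higher and 5 lower of 17) in the full-length active line. In the full-length substituted line they had -0.38 (0 higher and 4 lower of 17). They had 0.64 (0 higher and 0 lower of 17) in the truncated active line. In the truncated substituted line they had 0.12 (0 higher and 0 lower of 17). Genes of the plastid large subunit had -0.15 (0 higher and 5 lower of 24), -0.19 (1 higher and 6 lower of 24), -0.22 (0 higher and 0 lower of 24) and 0.11 (0 higher and 0 lower of 24) in the same order.

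**Figure D5:**
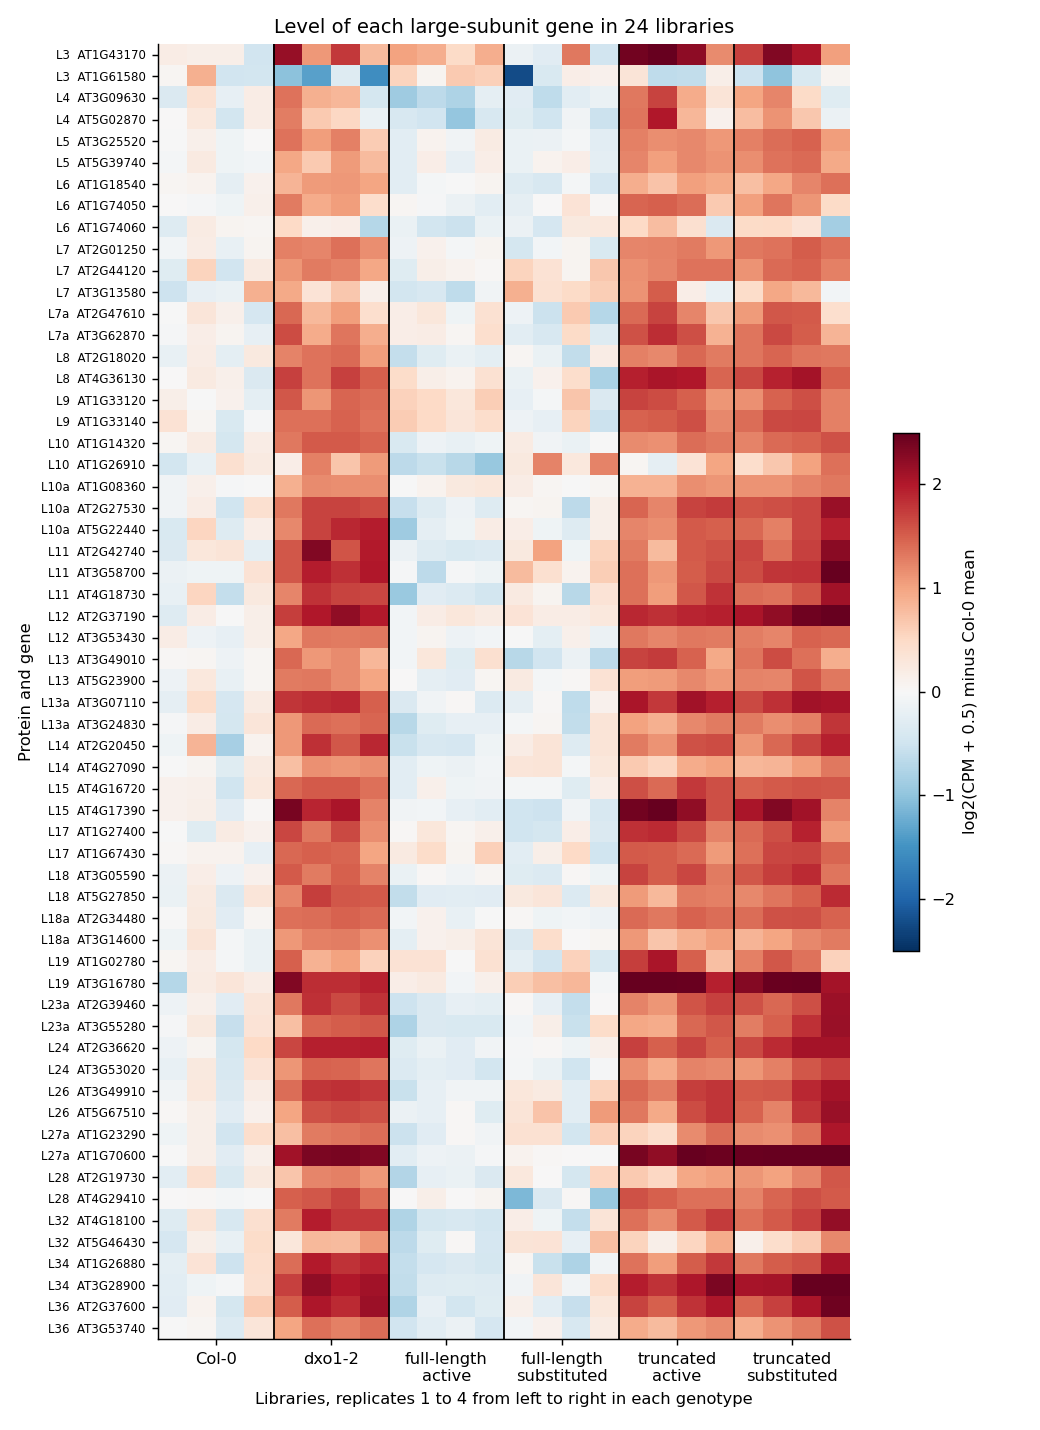
Level of each of the 60 genes (rows, by protein) in 24 libraries (columns, by genotype), as log2(CPM + 0.5) minus the Col-0 mean of the gene, with colours that saturate at the ends of the scale. Higher values fill most of dxo1-2 and of both truncated lines, and AT1G61580 (L3), AT1G74060 (L6) and AT3G13580 (L7) are among the exceptions.

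Lines with and without the truncation were compared directly. For the active protein 59 of 60 members were called higher in the truncated line and 0 lower, with a median log2 fold change of 1.46. Of all tested genes 29.9% were called, 17.4% higher and 12.5% lower. For the substituted protein 55 were called higher and 0 lower, with a median of 1.47. There 30.2% of tested genes were called, 17.6% higher and 12.6% lower. Libraries had no overlap for 57 and 51 members, against 29.8% and 24.9% of tested genes. These contrasts carry the difference in DXO1 read level between the lines.

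AT1G70600 (L27a), AT4G17390 (L15) and AT3G28900 (L34) led both comparisons, at 2.54, 2.40 and 2.46 for the active and 2.59, 2.34 and 2.27 for the substituted protein (edgeR adjusted p 2.7e-13 to 2.1e-08). RPL3B (AT1G61580) was lowest in both, at -0.69 (SE 0.39) and -0.20 (SE 0.45), uncalled. For the active protein AT1G74060 (L6) was next lowest (log2 fold change 0.72, SE 0.26, edgeR adjusted p 0.0390), although 7 of 8 fits that each omitted 1 library did not call it, with log2 fold changes of 0.55 to 0.91. AT3G14600 (L18a) followed (log2 fold change 0.84, SE 0.17, edgeR adjusted p 4.0e-04). For the substituted protein AT3G13580 (L7) and RPL10B (AT1G26910) were next lowest at 0.020 and 0.090.

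The catalytic substitutions were compared within each length of protein. Between the full-length lines 1 of 60 members was called higher in the substituted line and 0 lower, and the median log2 fold change was 0.17. Of tested genes 6.28% were called, 3.79% higher and 2.49% lower. The called gene was RPL10B (AT1G26910), with 5.28, 5.70, 5.12 and 4.20 CPM in the active and 10.2, 20.96, 10.4 and 21.1 CPM in the substituted line, from 10 to 33 counts per library. The lines did not overlap (log2 fold change 1.58, SE 0.34, edgeR adjusted p 0.00455). No overlap was found for 7 members and 12.7% of tested genes. AT3G13580 (L7) and AT2G42740 (L11) were next at 1.01 and 0.79 (edgeR adjusted p 0.0747 and 0.104). RPL3B, AT3G49010 (L13) and AT4G29410 (L28) were lowest at -0.81, -0.58 and -0.55 (edgeR adjusted p 0.251, 0.0796 and 0.0667). When replicate 3 of the substituted line was omitted 18 members were called, as were 18.8% of all tested genes. When replicate 3 of the active line was omitted 2 members and 5.62% of tested genes were. DESeq2 called 3 with all libraries, and 8.88% of tested genes. An unadjusted edgeR p under 0.05 held for 19 members, and whether that exceeds the share over all tested genes was not tested.

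Between the truncated lines edgeR called 0 of 60 members higher and 0 lower, with 2.11% of tested genes called, 1.45% higher and 0.662% lower. DESeq2 called 0, an unadjusted edgeR p under 0.05 held for 6, and the median was 0.16. For 3 members the lines did not overlap, nor for 7.29% of tested genes. RPL10B, AT3G58700 (L11) and AT1G23290 (L27a) were highest at 0.59, 0.57 and 0.52. AT5G02870 and AT3G09630 (L4) and AT1G43170 (L3) were lowest at -0.56, -0.45 and -0.42. DXO1 reads in both truncated lines, at 1.98 to 7.04 CPM, were not called different from dxo1-2. A lack of calls between these lines or in an interaction therefore cannot show how the substitutions act in a truncated protein. Whether the difference between substituted and active lines was itself different for the truncated and full-length constructs was tested by an interaction. It called 0 of 60 members higher and 0 lower in edgeR and 0 in DESeq2, with 1.44% of tested genes called by edgeR, 0.839% higher and 0.603% lower. An unadjusted edgeR p under 0.05 held for 3 members, AT3G13580 (L7), AT4G29410 (L28) and RPL10B. Their terms were -1.24 (SE 0.47), 0.55 (SE 0.25) and -0.998 (SE 0.46), with edgeR adjusted p of 0.229, 0.350 and 0.375.

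Within a genotype, libraries differed in a way that several members shared, a pattern picked out after the values were seen. Replicate 1 of dxo1-2 held the highest value, and replicate 4 the lowest, of AT1G43170 (L3), AT3G09630 and AT5G02870 (L4), AT4G17390 (L15) and AT1G02780 (L19). In both truncated lines replicate 2 was highest and replicate 4 lowest for the same 5 genes. AT1G43170, for example, had 346, 451, 304 and 145 CPM in the truncated active line. AT1G26880 and AT3G28900 (L34), AT2G37600 (L36), AT4G18100 (L32) and AT1G23290 (L27a) ran the other way. Their lowest dxo1-2 value was in replicate 1, and their highest value in both truncated lines was in replicate 4. AT4G18100, for example, had 456, 396, 509 and 587 CPM in the truncated active line.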

How the data were processed

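The deposited values were whole-number counts of 3' RNA-seq reads per gene in 24 libraries, which the authors had not normalized, as the values show. Per the submitters' processing notes, the tools were STAR 2.7.8a and DESeq2 and the genome build TAIR10. The counting tool, annotation, use of strand and collapsing of molecular identifiers are not given in the sources used here. Each table listed 37184 loci, and 0 lines named no gene. RefSeq's TAIR10.1 assembly, which 36899 loci matched, gave symbols, exon lengths and promoter windows. Libraries of a genotype were compared in 36 pairs, and 0 held identical values.

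All 24 libraries entered 1 fit of group means with edgeR 4.0.16 in R 4.3.3, after TMM scaling and filterByExpr, which kept 13592 genes. Quasi-likelihood tests were adjusted over all of them. Total counts had a median of 2112938 per library. Paralog shares were tested with exact permutation in SciPy 1.17.1, and sequences were aligned with Biopython 1.88. The fit was tested on simulated counts. A first criterion, on the share of known changes recovered, was not met and was replaced after that was seen. Small changes were often missed there, so a lack of calls does not show that levels were equal.

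Members and gene lists were chosen with earlier results of these data known, and proteins were grouped by position after values were seen. Genes named are the 10 highest and 6 lowest changes in dxo1-2, the 3 highest and 3 lowest in every other pair of groups, the 3 smallest interaction p, paralogs of the 6 proteins whose paralogs differed most, members called where 5 or fewer were, and the 3 highest and 3 lowest Col-0 levels. Genes outside this rule were named after their values were seen. Alternatives were DESeq2 1.42.0, size factors by median of ratios, omission of the filter, a mean of at least 10 counts, fitting the compared groups alone, a block for replicate number, removal of organelle genes, removal of the trend on exon length (lowess span 0.3), and omission of each library in turn. A covariate for the axis along which libraries of a group spread most (the main axis of spread) was added once the values had been seen.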

Additional observations from a re-analysis of the deposited data

Results flagged for a closer look

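In groups of 4 libraries, 1 library stood apart where its gap to the nearest of the others exceeded Dixon's critical share of the group's range. Over the CPM of all 60 members and their sum in 6 genotypes this held in 33 of 366 groups, where chance flags about 1 in 20, or 18.3. For members named by the rule it held in 19 of 210 groups.

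In Col-0, AT1G43170 had 45.99 CPM in replicate 4, below the others at 70.9 to 72.8 CPM. AT3G13580 had 24.5 CPM in replicate 4, above the others at 8.99 to 11.6 CPM. AT3G58700 had 28.7 CPM in replicate 4, above the others at 19.9 to 20.4 CPM. AT3G49010 had 105 CPM in replicate 3, below the others at 116 to 118 CPM. AT3G16780 had 6.15 CPM in replicate 1, below the others at 11.9 to 12.9 CPM. In dxo1-2, AT3G53430 had 175 CPM in replicate 1, below the others at 222 to 223 CPM. AT3G16780 had 53.4 CPM in replicate 1, above the others at 38.6 to 40.6 CPM. AT2G36620 had 258 CPM in replicate 1, below the others at 310.4 to 317 CPM. AT5G67510 had 58.4 CPM in replicate 1, below the others at 88.6 to 92.9 CPM. In the full-length active line, AT5G02870 had 39.9 CPM in replicate 3, below the others at 56.5 to 59.7 CPM. AT3G58700 had 13.8 CPM in replicate 2, below the others at 20.6 to 21.5 CPM. AT1G02780 had 130.4 CPM in replicate 3, below the others at 167 to 171 CPM. AT4G18100 had 103 CPM in replicate 1, below the others at 128 to 132 CPM. AT3G28900 had 19.5 CPM in replicate 1, below the others at 23.9 to 24.2 CPM. In the full-length substituted line, AT1G43170 had 162 CPM in replicate 3, above the others at 45.8 to 58.02 CPM. AT1G02780 had 196 CPM in replicate 3, above the others at 93.99 to 110.1 CPM. In the truncated active line, AT1G74050 had 114 CPM in replicate 4, below the others at 194 to 206 CPM. In the truncated substituted line, AT2G18020 had 1106 CPM in replicate 2, above the others at 1010.1 to 1015 CPM. AT3G58700 had 131 CPM in replicate 4, above the others at 69.5 to 78.6 CPM.

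Over all members, dxo1-2 replicate 1 stood apart low in 7 and high in 1. Replicate 3 of the full-length substituted line stood apart high in 4 and low in 3, and replicate 1 of the full-length active line low in 4. Leaving out 1 library at a time kept the count of called members at 53 to 54 in dxo1-2 minus Col-0, 55 to 58 in the full-length active line minus dxo1-2, and 52 to 55 in the full-length substituted line minus dxo1-2. The main fit called 22.6%, 30.6% and 25.5% of all tested genes in these comparisons. Shares in the fits without 1 library are not given, so these ranges have no background of their own.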

How the results depend on the processing

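Counts of called members in the 7 comparisons with over 50 calls ran from 52 to 60 of 60 over all alternatives, and the small counts moved. In these 7 comparisons the main fit called 22.6% to 30.6% of all tested genes, and shares in the alternatives are not given. With the main axis of spread within groups as covariate, computed from these same libraries, calls were 15 for the truncated active and 2 for the truncated substituted line minus dxo1-2, 19 for the full-length active and 5 for the full-length substituted line minus Col-0, 28 between the full-length lines, 17 between the truncated lines and 4 for the interaction. In the same order 27.2%, 5.20%, 16.5%, 16.2%, 29.1%, 23.4% and 9.51% of all tested genes were called. Fitting the compared groups alone called 7 in the full-length active line minus Col-0 and 2 between the full-length lines, where DESeq2 gave 3 and removal of the length trend 3, beside 11.4%, 5.38%, 8.88% and 9.43% of all tested genes. Leaving out 1 library gave 0 to 1 calls for the truncated active line minus dxo1-2. It gave 0 to 1 for the full-length substituted line minus Col-0, and 1 to 18 between the full-length lines. In the fits with the highest of these counts, 8.70%, 6.88% and 18.8% of all tested genes were called. The cause was not tested. Genes with few counts, such as AT1G61580 and AT1G26910, are limited by depth.

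Replicate numbers were not taken as pairing the libraries, although the values do not settle this. Of 60 same-numbered pairs 23 had a correlation of deviations over 0.1, as had 57 of 180 pairs with different numbers. The mean was 0.0572 over same-numbered pairs, against -0.0196 over pairs with different numbers, and 10 of 24 libraries correlated best with their own number. With the replicate block 5 members (and 8.99% of tested genes) were called between the full-length lines. In dxo1-2 minus Col-0 it called 55 members, where the main fit called 54 members and 22.6% of tested genes. The share of tested genes called with the block is not given for that comparison.

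Signs turned only in uncalled log2 fold changes. For AT3G13580 in the full-length substituted line minus dxo1-2 they were 0.061 with median-of-ratios factors, 0.073 in DESeq2, 0.0092 with a mean of at least 10 counts, 0.024 with the compared groups alone, 0.0014 with the replicate block, 0.050 without the length trend, and -0.11 to 0.17 without 1 library. For AT1G26910 they were 0.052, 0.052, 0.0047 and 0.018 in the first 4 settings, 0.0081 with no filter, 0.28 without the length trend, 0.020 with the main axis, and -0.21 to 0.19 without 1 library. In the truncated minus the full-length substituted line, AT3G13580 was at -0.045, -0.055, -0.017 and -0.049 with median-of-ratios factors, DESeq2, the compared groups alone and no length trend, and at -0.14 to 0.18 without 1 library. There AT1G26910 was at -0.20 without the length trend, and -0.096 to 0.29 without 1 library, as AT1G61580 was at -0.49 to 0.087. Without 1 library AT1G74060 was at -0.094 to 0.27 in dxo1-2 minus Col-0, AT5G46430 at -0.34 to 0.039 in the truncated substituted line minus dxo1-2, and AT1G61580 at -0.48 to 0.086 in the truncated active line minus Col-0. AT1G61580 was filtered out of the fit of Col-0 and dxo1-2 alone.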
